A study of Mus musculus with 12 samples.

Results

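E14 cells are an established line of mouse embryonic stem cells, grown here in 2 dimensions. The results describe what L-proline, given for 72 h, did to their messenger RNA: 3 libraries of proline-treated cells were set against 3 libraries of untreated cells, 6 of the 12 libraries in the series. The members are all genes that passed a filter on low counts, 13852 of 53819 gene symbols. The other 6 libraries came from cells given proline with the synthetic glucocorticoid budesonide and from cells given budesonide alone, also for 72 h. They helped to estimate the spread between replicates and enter 1 comparison at the end. The labels give neither the dose of proline nor the culture medium. They also give no time for the untreated cells, so a difference in culture time cannot be told apart from proline. Nothing in the labels shows that the replicates came from separate cultures. The p-values therefore reflect variation from library to library, which could be technical.

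Proline is not an essential amino acid: cells make it from glutamate through the enzymes Aldh18a1 and Pycr1, among others, and break it down in mitochondria through Prodh. In mouse embryonic stem cells the supply that the cells make is known to be limiting. A shortage of an amino acid is sensed by the kinase Gcn2, which phosphorylates the initiation factor eIF2 and thereby favours translation of the transcription factor Atf4. Atf4 turns on genes of amino acid synthesis, uptake and tRNA charging, pairing with proteins of the C/EBP family on a composite DNA element. Added proline is known to quiet this response and to move the cells out of the naive state.

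The promoters of 4 genes that fell with proline show this element, since they are where the amino acid response is known to act. The letters TGATGNAA, the core of the C/EBP-ATF element, were searched on both strands in RefSeq promoter windows of GRCm38.p6, from 250 bases before to 50 bases after a transcription start. Of 10057 tested genes with a window, 271 held the motif, or 2.695%. Of 31 Atf4 target genes with a window 10 held it (32.3%), and of 13 cytosolic aminoacyl-tRNA synthetase genes 5 held it (38.5%). It was no more frequent in the targets that fell, at 3 of 9, than in those that were not called, at 7 of 21. Each window below is read along its gene, with the motif or its reverse complement in capitals. In Asns, asparagine synthetase, the motif begins 23 bases upstream of the start.
Asns, chr6:7693160-7693459, minus strand: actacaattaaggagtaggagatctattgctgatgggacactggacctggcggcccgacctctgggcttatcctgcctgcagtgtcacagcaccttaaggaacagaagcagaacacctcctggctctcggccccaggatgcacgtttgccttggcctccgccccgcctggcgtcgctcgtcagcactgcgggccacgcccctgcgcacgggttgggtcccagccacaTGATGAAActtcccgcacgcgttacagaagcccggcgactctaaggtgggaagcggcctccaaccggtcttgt
In Nupr1, a stress-induced chromatin protein, the reverse complement begins 110 bases upstream.
Nupr1, chr7:126625421-126625720, minus strand: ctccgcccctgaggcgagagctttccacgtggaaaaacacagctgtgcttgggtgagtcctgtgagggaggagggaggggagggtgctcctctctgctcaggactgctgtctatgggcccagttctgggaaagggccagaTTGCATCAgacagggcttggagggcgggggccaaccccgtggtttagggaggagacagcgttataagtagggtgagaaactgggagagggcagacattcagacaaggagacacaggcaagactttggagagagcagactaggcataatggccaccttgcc
In Trib3, a pseudokinase that restrains the same response, the reverse complement begins 14 bases downstream of the start.
Trib3, chr2:152344011-152344310, minus strand: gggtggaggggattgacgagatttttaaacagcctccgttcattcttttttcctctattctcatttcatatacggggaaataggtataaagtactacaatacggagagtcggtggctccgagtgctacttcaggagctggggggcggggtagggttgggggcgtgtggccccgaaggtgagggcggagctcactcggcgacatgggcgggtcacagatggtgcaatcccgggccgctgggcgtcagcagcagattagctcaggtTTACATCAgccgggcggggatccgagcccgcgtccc
In Yars, the tyrosyl-tRNA synthetase, the motif begins 3 bases downstream.
Yars, chr4:129189653-129189952, plus strand: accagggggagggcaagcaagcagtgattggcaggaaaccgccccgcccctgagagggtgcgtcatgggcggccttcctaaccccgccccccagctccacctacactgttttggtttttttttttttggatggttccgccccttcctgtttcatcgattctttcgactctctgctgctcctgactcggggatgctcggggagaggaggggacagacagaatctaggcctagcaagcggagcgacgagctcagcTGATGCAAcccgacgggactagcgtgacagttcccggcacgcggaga
A match describes these letters only, and binding was not measured.

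Each count stands for 1 sequenced fragment near the 3′ end of a polyadenylated transcript. The totals were 15.92, 6.78 and 7.27 M counts for proline 1, 2 and 3, where M stands for mega, and 6.12, 5.299 and 6.73 M for control 1, 2 and 3. Proline 1 was more than 2 times as deep as any of the other 5. Genes were tested with edgeR's quasi-likelihood F test, two-sided, with Benjamini-Hochberg adjustment over all genes tested, and every adjusted p below comes from it. The words rose and fell are used of genes with an adjusted p under 0.05. Levels are in CPM, counts scaled to a common library total, and are given in the order of replicates 1, 2 and 3. In such bulk libraries fewer cells of a type and less RNA per cell cannot be told apart.

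With proline, 439 genes rose and 652 fell, 7.88% of those tested, or 3.17% that rose and 4.71% that fell. Every count of list members below is to be read beside these shares. In 1077 of the 1091 genes called, all libraries of 1 group lay above all libraries of the other, as they did in 26.7% of all genes tested. Groups that do not overlap are thus nearly given in a called gene and add no support to its call. The median absolute log2 change of the called genes was 0.88, with quartiles of 0.64 and 1.37. More than 2-fold changes numbered 156 among the rises and 308 among the falls, and more than 4-fold changes 39 and 76. A test against a 1.5-fold change called 192 genes (1.39%), 54 higher (0.39%) and 138 lower (0.996%). Of 22 known naive markers tested 15 fell, and of 23 formative markers 12 rose. Lists this short could hold only a small part of all calls, and 1064 calls lay beyond them, 427 rises and 637 falls. The number of calls was lower when any 1 of the 6 libraries was left out, which leaves 2 in its group. It was 674 without proline 1, 711 without proline 3 and 725 without control 1. It was 736 without control 2, 788 without proline 2 and 887 without control 3. Across 17 alternative settings, 461 genes were called in every one that gave them an adjusted p, 161 that rose and 300 that fell. The words called under every alternative are used in this sense below. A gene given with its values below is one of these 461 unless the text says where its call ended.

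**Figure D1:**
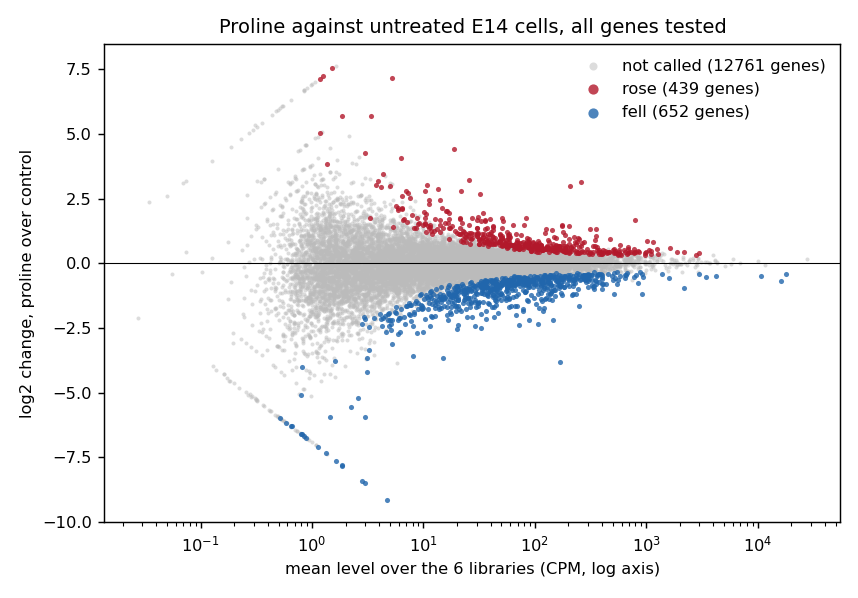
Each point is 1 of the 13852 genes tested, with its mean level over the 6 libraries in CPM on a log axis and its log2 change, proline over control. The 439 genes that rose (red) and the 652 that fell (blue) lie along the whole range of levels, and diagonal rows at low levels are genes with no count in 1 group.

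Among the 12 largest rises picked by the naming rule, the first place by size belonged to Mmp25, a metalloproteinase anchored in the cell membrane. The rule picks the largest changes and smallest p-values only among called genes whose groups do not overlap. The separation of genes picked in this way was therefore fixed by the choice. Mmp25 had 30.9, 46.03 and 30.2 CPM in the proline libraries and 3.44, 1.54 and 0 CPM in the control libraries. The groups did not overlap, at a log2 change of 4.42 ± 0.73 (SE, adjusted p = 3.38e-04). Enpp2, the secreted enzyme autotaxin that makes lysophosphatidic acid, had 40.8, 47.1 and 50.99 CPM with proline, against 5.56, 5.01 and 4.32 CPM in control. Even the lowest proline library stood far above the highest control library, at a log2 change of 3.22 ± 0.31 (SE, adjusted p = 2.42e-07). The signalling lipid acts on receptors, and the list of its synthesis, receptors and breakdown held 13 tested genes, of which 2 rose (1 without control 1, control 3, proline 1 or proline 3) and 1 fell. The receptor gene Lpar1 had 28.1, 30.9 and 25.3 CPM with proline, against 37.6, 40.9 and 53.05 CPM in control, a log2 change of −0.64 ± 0.19 (SE, adjusted p = 0.0417), and its call ended with limma-voom (0.0706), without the low-count filter (0.0509), in a fit of the 6 libraries alone (0.0757), with transcript length and GC offsets (0.0859), without control 2 (0.0757), without control 3 (0.196), without proline 1 (0.12), without proline 2 (0.0601) and without proline 3 (0.162).

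The other large rises were in genes of varied function. Sema6a, a membrane-bound semaphorin that steers axons and migrating cells, had 37.2, 46.9 and 30.4 CPM with proline, against 6.55, 5.397 and 4.63 CPM in control. Its log2 change was 2.79 ± 0.42 (SE, adjusted p = 1.02e-04). Prickle1, a component of planar cell polarity signalling, changed by 2.79 ± 0.49 (adjusted p = 5.81e-04), and the protocadherin gene Pcdh1 by 2.44 ± 0.47 (adjusted p = 0.00144). Ank, a membrane protein known to export pyrophosphate, had 13.8, 13.8 and 11.1 CPM with proline, against 2.95, 1.16 and 2.62 CPM in control. Its libraries did not overlap between the groups, at 2.505 ± 0.54 (adjusted p = 0.00384). Zfp608, Cnksr3 and Rnf122 rose by log2 changes of 3.04 ± 0.51, 2.86 ± 0.43 and 2.58 ± 0.58 (adjusted p = 3.61e-04, 8.95e-05 and 0.00574). Aif1l and Atp10a, further rises of this size, were not called under every alternative.

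Some abundant transcripts rose with very little spread. Trh, which encodes the precursor of thyrotropin-releasing hormone, had 454, 439 and 449 CPM in the proline libraries and 177, 179 and 174 CPM in the control libraries. The libraries of each group lay close together and the groups far apart, at a log2 change of 1.34 ± 0.12 (SE, adjusted p = 8.07e-08). Mdk, the heparin-binding growth factor midkine, had 557, 471 and 491 CPM with proline, against 183, 225 and 204 CPM in control, a log2 change of 1.31 ± 0.13 (adjusted p = 3.81e-07). Isyna1, the enzyme that makes inositol phosphate from glucose 6-phosphate, had 526, 448 and 463 CPM with proline, against 207, 216 and 261 CPM in control, at 1.07 ± 0.12 (adjusted p = 3.12e-06). Nap1l1, a histone chaperone, changed by 0.82 ± 0.10 (adjusted p = 4.91e-06).

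Among the genes that fell, the smallest p-values included that of H2bc4. As with the rises, only genes whose groups did not overlap could be picked. H2bc4, a replication-type histone H2B gene, had 40.8, 30.9 and 31.4 CPM in the proline libraries and 186, 187 and 159 CPM in the control libraries. Every control library held several times the level of any proline library, at a log2 change of −2.36 ± 0.17 (SE, adjusted p = 3.50e-09). Cobl, which nucleates actin filaments, had 32.4, 29.01 and 34.7 CPM with proline, against 137, 129 and 172 CPM in control, a log2 change of −2.19 ± 0.16 (adjusted p = 3.72e-09). Lgals3, the sugar-binding protein galectin-3, had 32.3, 31.1 and 38.3 CPM with proline, against 110.1, 133 and 122 CPM in control, at −1.85 ± 0.14 (adjusted p = 4.65e-09). No library of either gene came near the other group. Rif1, which acts in replication timing and telomere protection, had 597, 531 and 562 CPM with proline, against 1334, 1229 and 1245 CPM in control and changed by −1.17 ± 0.09 (adjusted p = 9.56e-09). The small GTPase Mras changed by −1.99 ± 0.17 (adjusted p = 5.18e-08), the growth factor Pdgfa by −1.39 ± 0.13 (adjusted p = 1.63e-07), and Mylpf, a myosin regulatory light chain of fast muscle, by −1.38 ± 0.12 (adjusted p = 1.05e-07). Khdc3, a maternal-effect gene of oocytes and early embryos, had 8.504, 10.5 and 8.34 CPM with proline, against 61.04, 52.04 and 33.6 CPM in control, at −2.43 ± 0.26 (adjusted p = 1.11e-06). Apod, the lipid carrier apolipoprotein D, had 3.47, 2.52 and 2.08 CPM with proline, against 12.9, 15.8 and 23.1 CPM in control, at −2.66 ± 0.54 (adjusted p = 0.00229). Smaller transcripts in this group were Lrrn2 at −3.60 ± 0.49 (adjusted p = 2.91e-05), Lrrc34 at −2.53 ± 0.34 (adjusted p = 2.30e-05), Ly6a at −2.65 ± 0.48 (adjusted p = 8.30e-04), Ahnak2 at −2.42 ± 0.31 (adjusted p = 1.57e-05), Ccdc141 at −2.43 ± 0.44 (adjusted p = 8.41e-04) and B3galnt1 at −2.75 ± 0.65 (adjusted p = 0.00818).

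**Figure D2:**
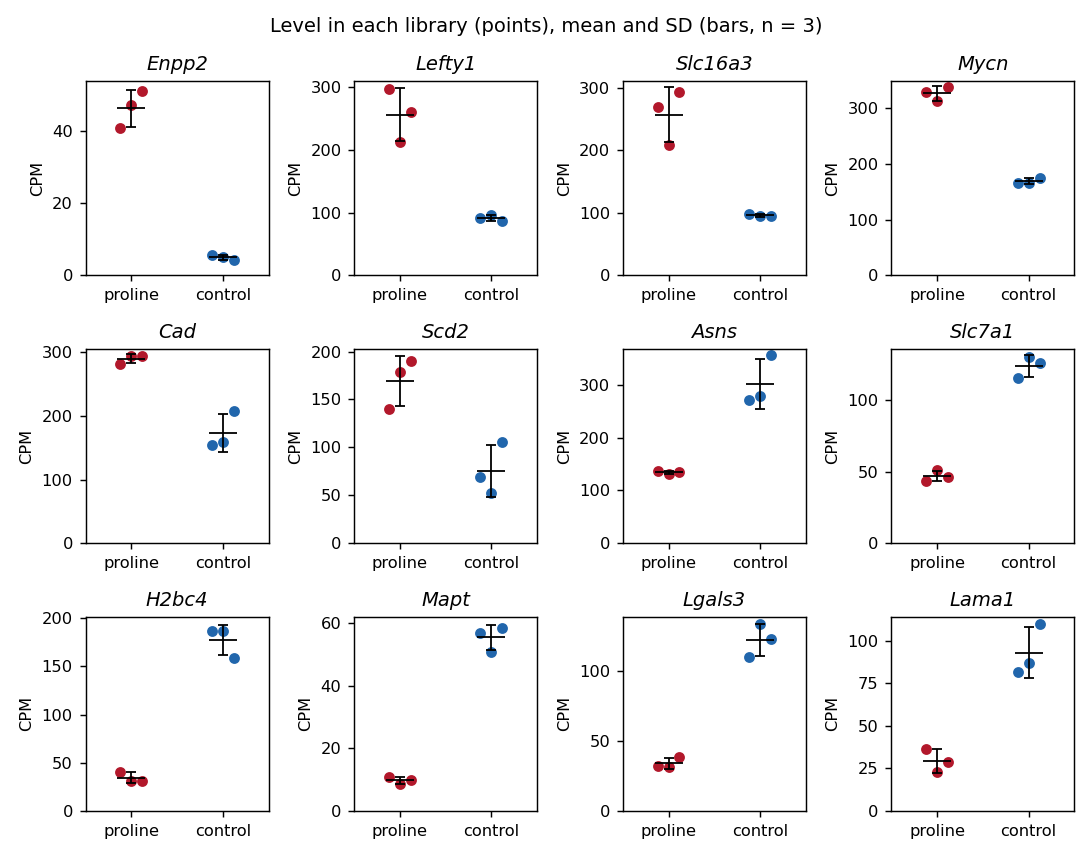
Levels of 12 genes in CPM, with 1 point per library, a line for the mean and bars for the SD (n = 3), proline (red) left of control (blue). In each panel all proline libraries lie on 1 side of all control libraries: Enpp2, Lefty1, Slc16a3, Mycn, Cad and Scd2 above, and Asns, Slc7a1, H2bc4, Mapt, Lgals3 and Lama1 below. All 12 are called genes, and groups did not overlap in 1077 of the 1091 genes called.

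Of 22 genes that handle proline itself, in synthesis, breakdown and uptake, 3 rose and none fell (1 without proline 1). Over all genes tested, 3.17% rose and 4.71% fell. Of the 3 rises in the list, 2 were called under every alternative. The median log2 change of the list was 0.24 beside −0.01 over all genes. Slc38a2, a carrier of small neutral amino acids including proline, had 776, 841 and 809 CPM with proline, against 585, 603 and 625 CPM in control, a log2 change of 0.42 ± 0.09 (SE, adjusted p = 0.00449), and all proline libraries lay above all controls. Glutamate dehydrogenase (Glud1) was another rise, by 0.37 ± 0.11 (adjusted p = 0.0449), and its call ended without the low-count filter (0.0603), in a fit of the 6 libraries alone (0.0684), with scaling by library totals (0.0515), without control 1 (0.123), without control 3 (0.149), without proline 1 (0.164) and without proline 3 (0.19). Pycr1, an enzyme of the last synthesis step and also a member of the Atf4 list, had 17.5, 5.33 and 13.3 CPM with proline, against 23.2, 26.6 and 22.1 CPM in control and was not called (log2 −0.97 ± 0.35, adjusted p = 0.0937). Pycr1 was called lower without proline 1 (0.0441). Aldh18a1 and the breakdown enzyme Prodh stood at −0.14 ± 0.43 and 0.51 ± 0.32, with libraries of the groups overlapping.

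Of 36 Atf4 targets tested, Atf4 itself included, 1 rose and 11 fell (7 without control 2, control 3 or proline 2), and 6 of the falls were called in every alternative. The rise was Slc38a2, given above with the proline genes and a member of both lists. Their median log2 change was −0.30. Asns, whose promoter is shown above, had 137, 132 and 134 CPM with proline, against 271, 279 and 357 CPM in control, a log2 change of −1.17 ± 0.13 (SE, adjusted p = 1.08e-06). Its proline libraries lay within a few CPM of each other. Slc7a1, the carrier of arginine and lysine, had 43.8, 50.9 and 46.1 CPM with proline, against 116, 131 and 126 CPM in control, at −1.41 ± 0.15 (adjusted p = 1.04e-06). Cth, which makes cysteine from cystathionine, had 24.3, 32.9 and 21.5 CPM with proline, against 67.3, 63.8 and 68.8 CPM in control, at −1.35 ± 0.20 (adjusted p = 7.31e-05). In both genes the groups were well apart. The transcription factor Atf5 changed by −1.63 ± 0.31 (adjusted p = 0.00148) and the serine synthesis enzyme Psat1 by −0.65 ± 0.13 (adjusted p = 0.00185). The gene for Atf4, which is known to be controlled in translation, had 330.0, 311 and 334 CPM with proline, against 439.8, 436 and 527 CPM in control, a log2 change of −0.53 ± 0.12 (adjusted p = 0.00522). Nupr1 had 2.29, 4.44 and 7.09 CPM with proline, against 20.9, 14.5 and 20.97 CPM in control, at −2.05 ± 0.48 (adjusted p = 0.00761), and the call ended without proline 1 (0.0557). Trib3 had 28.8, 26.5 and 26.7 CPM with proline, against 45.7, 43.6 and 44.1 CPM in control and changed by −0.70 ± 0.21 (adjusted p = 0.0445), and its call ended without the low-count filter (0.0937), without control 1 (0.135), without control 2 (0.114), without control 3 (0.0812), without proline 1 (0.103), without proline 2 (0.129) and without proline 3 (0.136). Asns, Atf4 and Trib3 are named beyond the naming rule, after their values were seen. Chac1, a glutathione-degrading enzyme of the same response, did not follow, with 24.9, 16.4 and 25.3 CPM with proline, against 19.3, 19.5 and 19.7 CPM in control and overlapping groups (log2 0.19 ± 0.37). The median of the list in budesonide-treated cells was −0.21.

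Among 20 cytosolic aminoacyl-tRNA synthetases, which charge tRNAs, 1 rose (0 without control 1 or proline 1) and 4 fell (2 without control 2, 1 without control 1, control 3 or proline 3, 0 without proline 1 or proline 2), and no call held under every alternative. The falls were Cars at −0.59 ± 0.15 (adjusted p = 0.0147), Yars at −0.50 ± 0.15 (adjusted p = 0.0376), Sars at −0.39 ± 0.11 (adjusted p = 0.03298) and Nars at −0.36 ± 0.11 (adjusted p = 0.0465), and the rise was Kars at 0.45 ± 0.11 (adjusted p = 0.0114). The list as a whole sat at −0.04. Of 33 amino acid transporters 2 rose (1 without control 1, control 2, control 3, proline 1, proline 2 or proline 3) and 4 fell (2 without control 2, control 3, proline 1, proline 2 or proline 3). The creatine carrier Slc6a8, which stood in that list, had 43.4, 42.2 and 55.7 CPM with proline, against 77.2, 90.01 and 86.5 CPM in control, at −0.85 ± 0.19 (adjusted p = 0.00651).

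In the serine, one-carbon, cysteine, threonine and polyamine list of 32 genes, 6 rose and 4 fell (2 without control 2 or proline 2). The rises included both aminopropyl transferases of polyamine synthesis, with spermidine synthase (Srm) at 736, 711 and 684 CPM with proline, against 411, 431 and 478 CPM in control. Its log2 change was 0.69 ± 0.10 (SE, adjusted p = 8.76e-05), and spermine synthase (Sms) changed by 0.66 ± 0.15 (adjusted p = 0.00719). Amd1, which supplies their aminopropyl groups, changed by 0.80 ± 0.18 (adjusted p = 0.00495), with the call ending without proline 1 (0.0521). Ahcy, which clears the by-product of methylation, had 40.6, 45.1 and 57.7 CPM with proline, against 28.1, 19.3 and 17.3 CPM in control, at 1.15 ± 0.25 (adjusted p = 0.004696). The falls were Cth and Psat1 above, Shmt2 (−0.52 ± 0.13) and threonine dehydrogenase Tdh (−0.33 ± 0.10). The Shmt2 call ended without control 2 (0.0552), without control 3 (0.0586) and without proline 2 (0.0883). Tdh, on which mouse embryonic stem cells are known to depend, had 526, 436 and 486 CPM with proline, against 617, 626 and 584 CPM in control, and its call (adjusted p = 0.0396) ended without the low-count filter (0.0961), in a fit of the 6 libraries alone (0.0683), with libraries thinned to the smallest (0.051), without control 1 (0.116), without control 2 (0.145), without proline 2 (0.195) and without proline 3 (0.106).

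Nucleotide synthesis genes were called in 1 direction. Of 20 purine and pyrimidine genes, 8 rose (5 without control 1, control 2 or proline 1, 4 without proline 2) and none fell, with a median of 0.41. Over all genes tested, 3.17% rose and 4.71% fell. Cad, which carries out the opening steps of pyrimidine synthesis, had 282, 295 and 294 CPM in the proline libraries and 154, 158 and 207 CPM in the control libraries. Proline libraries lay within a narrow band above all controls, at a log2 change of 0.74 ± 0.13 (SE, adjusted p = 3.84e-04). Ctps, which makes CTP, had 134, 129 and 151 CPM with proline, against 80.5, 84.2 and 74.6 CPM in control, at 0.79 ± 0.14 (adjusted p = 7.88e-04). The purine enzymes Atic and Gart changed by 0.69 ± 0.13 (adjusted p = 0.00135) and 0.67 ± 0.15 (adjusted p = 0.00467). Those 4 genes were the ones called under every alternative. In budesonide-treated cells the median of the list was 0.19.

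Mycn, the N-Myc transcription factor known to drive growth and ribosome genes, had 328, 312 and 338 CPM in the proline libraries and 165, 165 and 175 CPM in the control libraries. The groups were far apart relative to their spread, at a log2 change of 0.95 ± 0.12 (SE, adjusted p = 1.27e-05). Of 65 translation initiation and elongation factors, 7 rose (4 without control 3 or proline 2, 3 without proline 3, 2 without control 1, control 2 or proline 1) and 2 fell (1 without control 1, control 2, control 3, proline 1, proline 2 or proline 3). Eif4h, a helper of the helicase eIF4A, had 409.6, 483 and 475 CPM with proline, against 238, 245 and 241 CPM in control, at 0.92 ± 0.11 (adjusted p = 6.21e-06). Eif2s2, the beta subunit of the factor eIF2 that Gcn2 acts on, went the other way. It had 1579.8, 1413 and 1418 CPM with proline, against 2773, 2711 and 3075 CPM in control, at −0.96 ± 0.08 (adjusted p = 7.93e-08). Eif1ax, which acts in start codon selection, changed by 0.65 ± 0.12 (adjusted p = 9.82e-04). Of 88 cytosolic ribosomal protein genes 4 rose (2 without control 2, proline 1 or proline 2) and 2 fell (1 without control 2 or proline 1), with a median of 0.03. These counts stood beside 3.17% and 4.71% of all genes tested. Rplp0 and Rpl13a rose by 0.48 ± 0.09 and 0.54 ± 0.10 on the log2 scale, while the retrogene Rpl10l fell (−0.88 ± 0.18). Ribosomal protein genes have many processed copies, so their counts are uncertain. Of 73 mitochondrial ribosomal protein genes 1 rose, Mrps24 at 0.59 ± 0.14 (adjusted p = 0.007498), and none fell.

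Of 45 proteasome subunit genes, 6 rose (3 without control 1 or proline 1, 2 without proline 3) and 1 fell (0 without control 1, control 2, proline 1, proline 2 or proline 3), with a median of 0.22. Over all genes tested, 3.17% rose and 4.71% fell. The rises called under every alternative belonged to the immune type of proteasome. Psme2, a subunit of the activator PA28, had 81.8, 82.1 and 74.3 CPM with proline, against 40.3, 35.7 and 41.3 CPM in control, at 1.02 ± 0.20 (adjusted p = 0.00187). Psmb10, a catalytic subunit of the immunoproteasome, had 172, 185 and 151 CPM with proline, against 87.1, 81.5 and 103 CPM in control, at 0.90 ± 0.16 (adjusted p = 6.62e-04). Of 22 interferon-related genes, 3 rose (1 without control 1) and 1 fell (0 without proline 1). Irf1, the transcription factor known to act on immunoproteasome and antigen presentation genes, had 146, 95.3 and 145 CPM with proline, against 30.6, 45.5 and 39.6 CPM in control. Its lowest proline library held more than 2 times the level of its highest control library, at a log2 change of 1.74 ± 0.18 (SE, adjusted p = 9.19e-07). The class I histocompatibility gene H2-K1 changed by 1.15 ± 0.28 (adjusted p = 0.009202), a call that ended without control 1 (0.0556) and without control 2 (0.0563). Of 45 heat shock proteins and chaperones 1 rose and 2 fell, near the shares over all genes tested. The small heat shock protein Hspb1 had 359, 267 and 334 CPM with proline, against 499, 599 and 573 CPM in control, at −0.80 ± 0.12 (adjusted p = 8.06e-05), and Hsp90aa1 had 2749.8, 3012 and 2785 CPM with proline, against 3825, 3603 and 4843 CPM in control, at −0.52 ± 0.10 (adjusted p = 0.00186). The chaperonin subunit Cct2 rose, by 0.55 ± 0.11 (adjusted p = 0.002403).

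Sugar and lipid metabolism shifted in selected enzymes. In glycolysis and hypoxia, 27 genes tested, 8 rose (5 without control 1) and 2 fell (1 without control 3 or proline 1), with a median of 0.31. The shares over all genes tested were 3.17% that rose and 4.71% that fell. Slc16a3, the lactate exporter MCT4, had 269, 209 and 293 CPM in the proline libraries and 98.2, 95.6 and 94.2 CPM in the control libraries. Control libraries were nearly equal and all proline libraries above them, at a log2 change of 1.42 ± 0.14 (SE, adjusted p = 5.86e-07). The phosphofructokinase genes went opposite ways. The liver form Pfkl had 269, 245 and 250.4 CPM with proline, against 143, 171 and 189 CPM in control, at 0.60 ± 0.13 (adjusted p = 0.00305). The platelet form Pfkp had 129.9, 126 and 119.9 CPM with proline, against 192, 168 and 229 CPM in control, at −0.65 ± 0.15 (adjusted p = 0.00787). Triosephosphate isomerase (Tpi1) rose by 0.82 ± 0.12 on the log2 scale.

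Of 25 cholesterol synthesis genes 4 rose (2 without control 1, 1 without control 2, control 3, proline 1 or proline 2) and none fell, with a median of 0.37. Cyp51, which demethylates lanosterol, was the member called under every alternative, with 76.6, 91.9 and 69.9 CPM with proline, against 40.6, 35.9 and 38.1 CPM in control and a log2 change of 1.06 ± 0.18 (adjusted p = 3.61e-04). Fatty acid and lipid carrier genes, 29 tested, split evenly, as 6 rose and 6 fell. Genes of fatty acid desaturation were among the rises. Scd2, a stearoyl-CoA desaturase, had 140.3, 179 and 189.8 CPM with proline, against 68.6, 52.8 and 105 CPM in control, at 1.16 ± 0.18 (adjusted p = 1.54e-04). Fads2, the delta-6 desaturase, had 52.9, 56.4 and 51.4 CPM with proline, against 17.8, 21.4 and 12.5 CPM in control, at 1.64 ± 0.24 (adjusted p = 7.00e-05). All proline libraries of both genes lay above all controls. Fabp5, a fatty acid binding protein with many processed copies and thus uncertain counts, changed by 1.70 ± 0.34 (adjusted p = 0.00187), and Acsl3, which activates fatty acids, by 0.99 ± 0.21 (adjusted p = 0.00299). The elongase Elovl6 fell, with 74.4, 102 and 88.9 CPM with proline, against 144, 139.9 and 150.1 CPM in control and a log2 change of −0.71 ± 0.14 (adjusted p = 0.00245).

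Few nuclear-encoded genes of the respiratory chain were called, beside the 3.17% of all genes tested that rose and the 4.71% that fell. Of 81 nuclear-encoded subunit genes, 2 rose (1 without control 2, control 3 or proline 2, 0 without control 1, proline 1 or proline 3) and 1 fell (3 without control 1, 2 without proline 2, 0 without control 3, proline 1 or proline 3), with a median of −0.05, and none was called under every alternative. Of 9 mitochondrially encoded genes 6 fell and none rose, with a median of −0.43. mt-Nd4, a subunit of complex I, had 13191, 11114 and 13133 CPM with proline, against 17699, 20024 and 22586 CPM in control, at −0.69 ± 0.08 (adjusted p = 8.03e-06). mt-Cytb, of complex III, had 8693, 9583 and 8263 CPM with proline, against 12879, 12292 and 12199 CPM in control, at −0.49 ± 0.08 (adjusted p = 3.41e-04). Mitochondrial transcripts took 5.51% to 5.79% of the counts in proline libraries and 7.31% to 7.77% in control libraries. All 6 calls ended when transcript length and GC content entered the fit, where mt-Nd4 had an adjusted p of 0.249 and mt-Cytb one of 0.0835. In that fit 1 member was called higher, mt-Rnr2, a ribosomal RNA whose log2 change as counted was −0.08 ± 0.12 (adjusted p = 0.802).

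Base composition moved with the calls across all genes. Of 620 genes whose median annotated transcript had under 40% GC, none rose and 82 fell, with a median log2 change of −0.46. Of 3442 genes at 55% GC or more, 135 rose and 122 fell, with a median of 0.07. Over all genes tested, 3.17% rose and 4.71% fell. Within libraries, the correlation of a gene's deviation with its GC content, across genes and given as a description, was 0.163, 0.056 and 0.095 in proline libraries and −0.235, −0.100 and 0.058 in control libraries. The last of the control libraries thus fell in the range of the proline libraries. With length and GC content in the fit, an alternative chosen after the data were seen, 437 genes rose and 557 fell, and 876 genes were shared with the 1091. The median of the lowest GC class was then −0.11. The part of base composition in single results was not tested beyond this fit.

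**Figure D3:**
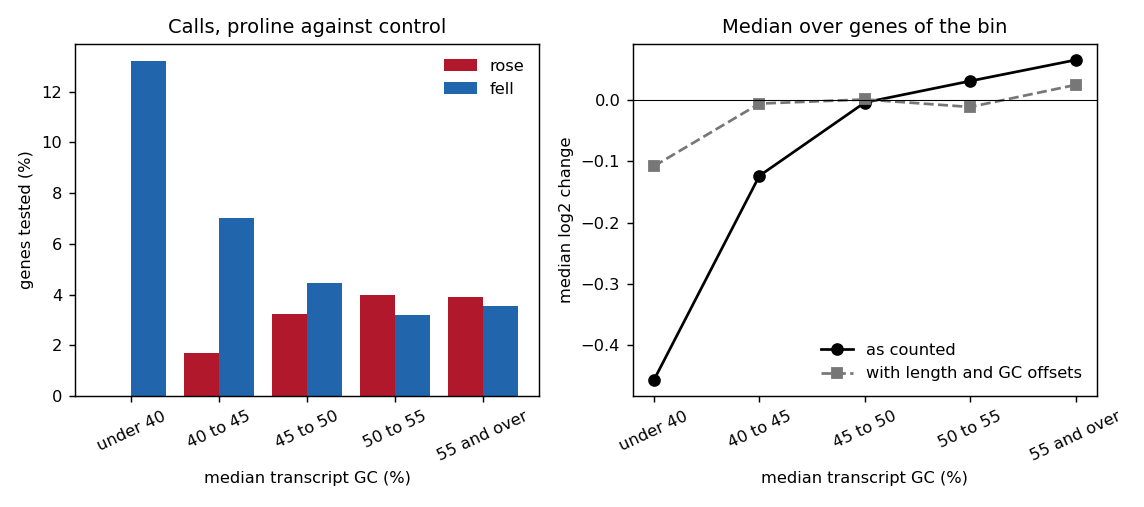
Left, the share of tested genes that rose (red) and fell (blue) with proline, in percent, by median GC content of the annotated transcripts in percent. Right, the median log2 change of each class as counted (black, from −0.46 in the lowest class to 0.07 in the highest) and with transcript length and GC content in the fit (grey, −0.11 in the lowest class).

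Growth factor signalling genes are given by list, beside the 3.17% of all genes tested that rose and the 4.71% that fell. The list of FGF-ERK ligands, receptors and feedback genes had 36 members tested, of which 8 rose (5 without control 3, proline 1 or proline 3) and none fell, with a median of 0.23. Among ligands, Fgf5, also a formative marker, had 295 counts in all proline libraries together and 1 in the control libraries. Fgf13, a non-secreted member of the FGF family, had 197 and 2 counts, a ratio of 59.6 after scaling (95% counting interval 16.3 to 496.0, which covers counting error only). The call of Fgf13 (adjusted p = 0.0419) ended with DESeq2 (0.0902), with limma-voom (0.0543), without control 1 (0.0547), without control 2 (0.14), without control 3 (0.113), without proline 1 (0.105), without proline 2 (0.105) and without proline 3 (0.0695). Fgf15 had 36.8, 47.2 and 42.7 CPM with proline, against 9.16, 10.99 and 17.3 CPM in control, at 1.75 ± 0.33 (adjusted p = 0.001202). Dusp4, a phosphatase that ERK signalling induces, had 24.7, 26.8 and 20.3 CPM with proline, against 5.07, 5.98 and 5.24 CPM in control. Its libraries did not overlap between the groups, at 2.14 ± 0.45 (adjusted p = 0.00304). The related feedback gene Dusp6 changed by 0.52 ± 0.15 (adjusted p = 0.0322), and its call ended in a fit of the 6 libraries alone (0.0637), without control 1 (0.0861), without control 3 (0.16), without proline 1 (0.0524), without proline 2 (0.122) and without proline 3 (0.0893). Spry4 and Etv5 stood at 0.10 ± 0.30 and −0.05 ± 0.13 and Egr1 at −0.87 ± 0.32, none of them called. Egr1 was called lower with limma-voom (0.0222), without the low-count filter (0.0315) and in a fit of the 6 libraries alone (0.0176).

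In Nodal, activin and BMP signalling, 36 genes tested, 5 rose, beside 3.17% of all genes tested, and 2 fell. Both Lefty genes, secreted inhibitors of Nodal, rose. Lefty1 had 297, 212 and 261 CPM with proline, against 91.1, 96.8 and 86.7 CPM in control, at 1.49 ± 0.14 (adjusted p = 1.63e-07). Lefty2 had 126, 98.4 and 128 CPM with proline, against 45.8, 46.1 and 34.4 CPM in control, at 1.48 ± 0.17 (adjusted p = 3.21e-06). The activin receptor gene Acvr2b changed by 0.77 ± 0.16 (adjusted p = 0.00356). The 2 falls, in a list of 36 and beside 4.71% of all genes tested, were the ligand genes Bmp4 and Inhbb. Bmp4 had 30.4, 32.1 and 28.6 CPM with proline, against 75.8, 84.04 and 82.4 CPM in control, at −1.41 ± 0.17 (adjusted p = 7.82e-06). Inhbb, an activin subunit, had 14.5, 5.33 and 7.92 CPM with proline, against 39.8, 34.7 and 26.8 CPM in control, at −1.83 ± 0.33 (adjusted p = 7.07e-04). Neither ligand's groups overlapped.

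Of 27 genes of the LIF-Stat3 pathway, which sustains naive cells, 1 rose and 2 fell (4 without control 3), with a median of −0.34. This and the next lists stand beside 3.17% of all genes tested that rose and 4.71% that fell. The receptor Lifr had 25.97, 27.8 and 36.3 CPM with proline, against 69.9, 51.5 and 51.7 CPM in control, at −0.95 ± 0.20 (adjusted p = 0.00288), and Klf4 fell (−1.47 ± 0.15). The kinase Pim2, also a formative marker, rose by 2.996 ± 0.15. Socs3, a direct Stat3 target, stood at −0.51 ± 0.22 and was not called (adjusted p = 0.193). Socs3 was called lower without the low-count filter (0.0335) and without control 3 (0.0338). Of 37 Wnt effectors and targets, 3 rose (1 without proline 1) and 4 fell (2 without proline 1 or proline 3, 1 without control 1, control 2 or proline 2), with a median of 0.42. The TCF/LEF transcription factor genes split, as Lef1 and Tcf7l1 rose and Tcf7l2 stood among the falls (−0.85 ± 0.25, adjusted p = 0.0386), its call ending with limma-voom (0.0886), without the low-count filter (0.0765), in a fit of the 6 libraries alone (0.0725), without control 1 (0.128), without control 2 (0.0721), without control 3 (0.0814), without proline 2 (0.113) and without proline 3 (0.177). Lef1, also a formative marker, had 69.5, 75.6 and 87.8 CPM with proline, against 19.6, 31.2 and 25.1 CPM in control, at 1.62 ± 0.23 (adjusted p = 4.47e-05). Tcf7l1, a repressor of the naive network, changed by 0.74 ± 0.18 (adjusted p = 0.00959), with the call ending without control 1 (0.0572) and without proline 1 (0.050029). Sfrp1, a secreted Wnt inhibitor, had 47.8, 47.2 and 39.5 CPM with proline, against 74.8, 73.8 and 88.2 CPM in control, at −0.82 ± 0.14 (adjusted p = 5.02e-04). The targets Axin2 and Ccnd1 stood at −0.44 ± 0.70 and 0.07 ± 0.19, not called. Of 28 hedgehog and Notch genes, 2 rose and 1 fell (2 without control 3). Dll3, a Notch ligand that acts within the cell, had 27.7, 27.4 and 26.1 CPM with proline, against 4.09, 8.29 and 8.64 CPM in control, at 1.95 ± 0.39 (adjusted p = 0.00199). Hes6 had 111, 89.3 and 81.4 CPM with proline, against 30.4, 37.6 and 32.1 CPM in control, at 1.49 ± 0.24 (adjusted p = 2.70e-04). Rbpj, the DNA-binding partner of Notch, fell by 0.74 on the log2 scale (adjusted p = 4.28e-04). Of 19 immediate early genes 1 rose, Ier5, and none fell, and the Ier5 call ended without control 1 (0.11), without control 2 (0.105) and without proline 3 (0.146). With so few calls, the LIF-Stat3, the hedgehog and Notch and the immediate early lists were not set apart from all genes tested.

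**Figure D4:**
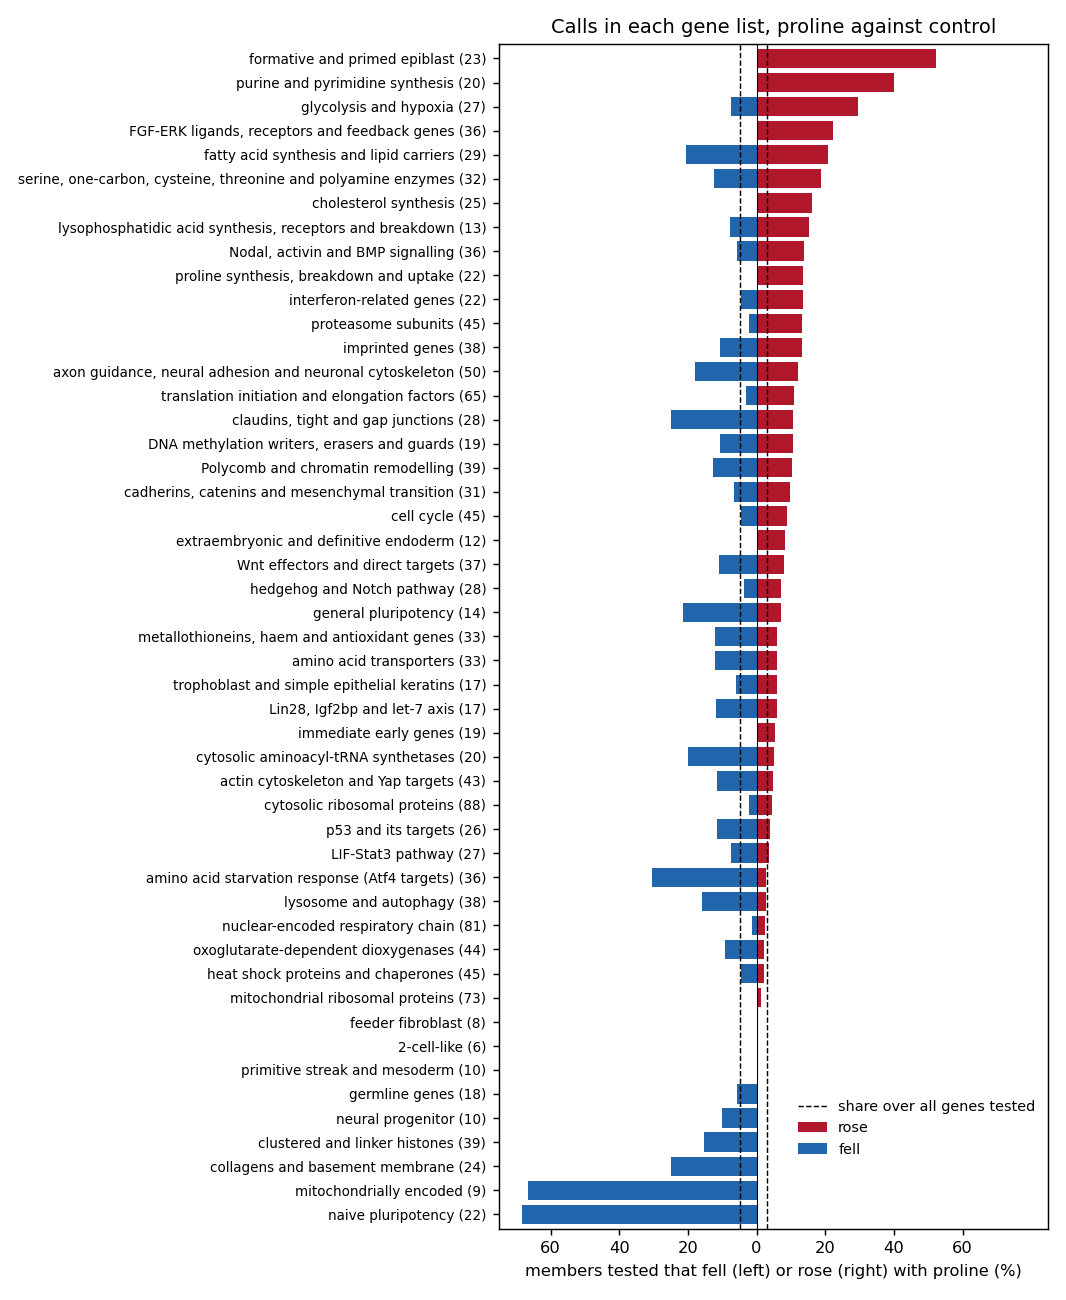
Each row is 1 of the 49 gene lists with its number of members tested in brackets. Bars give the percentage of members that rose (red, to the right) or fell (blue, to the left), and dashed lines mark the 3.17% and 4.71% over all genes tested. The formative and the purine and pyrimidine lists reach farthest to the right, and the naive, mitochondrially encoded and Atf4 lists farthest to the left.

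Genes of cell contact and matrix changed in both directions. Of 24 collagen and basement membrane genes none rose and 6 fell (3 without control 2). Lama1, the laminin chain of the early embryo, had 36.6, 22.8 and 28.9 CPM in the proline libraries and 81.98, 87.3 and 110.0 CPM in the control libraries. The groups did not overlap, at a log2 change of −1.65 ± 0.19 (SE, adjusted p = 2.48e-06). Nid1, which links laminin to collagen, had 9.81, 17.2 and 15.1 CPM with proline, against 59.2, 41.4 and 34.2 CPM in control, at −1.70 ± 0.26 (adjusted p = 1.29e-04). The proteoglycan perlecan (Hspg2) changed by −0.85 ± 0.17 (adjusted p = 0.00175). Of 28 claudins, tight and gap junction genes, 3 rose (1 without control 2, proline 1 or proline 2) and 7 fell. The claudins split, as Cldn6 had 139.9, 77.6 and 117 CPM with proline, against 50.7, 64.6 and 56.1 CPM in control, at 0.97 ± 0.20 (adjusted p = 0.00235), and Cldn4 had 21.6, 29.9 and 25.8 CPM with proline, against 47.3, 52.04 and 60.3 CPM in control, at −1.05 ± 0.22 (adjusted p = 0.00352). The connexin gene Gjb5 changed by −1.99 ± 0.34 (adjusted p = 4.21e-04). The scaffold Ahnak had 21.7, 23.7 and 13.5 CPM with proline, against 73.8, 70.2 and 78.3 CPM in control, at −1.91 ± 0.20 (adjusted p = 6.35e-07). Of 31 cadherin, catenin and mesenchymal transition genes, 3 rose and 2 fell (1 without control 1, 0 without control 2, proline 1 or proline 2). Mmp25 above was 1 of the rises. Epcam, an adhesion molecule of epithelia and stem cells, had 287, 275 and 213 CPM with proline, against 179, 185 and 139 CPM in control, at 0.63 ± 0.14 (adjusted p = 0.00578). E-cadherin (Cdh1) was not called, with 832, 576 and 874 CPM with proline, against 591, 725 and 693 CPM in control (log2 0.18 ± 0.15, adjusted p = 0.566).

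In the actin cytoskeleton and Yap list of 43 genes, 2 rose (1 without control 1, control 2, control 3, proline 1 or proline 3) and 5 fell (3 without proline 1). These counts stood beside 3.17% and 4.71% of all genes tested. Rock1, a kinase that drives actomyosin contraction, had 111, 96.4 and 80.2 CPM with proline, against 196, 221 and 181 CPM in control, at −1.05 ± 0.15 (adjusted p = 4.74e-05). The calcium-binding protein gene S100a6 changed by −1.05 ± 0.16 (adjusted p = 1.10e-04). Zyxin (Zyx), a focal adhesion protein, rose, with 21.5, 25.8 and 29.5 CPM with proline, against 9.65, 4.24 and 5.09 CPM in control and a log2 change of 2.01 ± 0.44 (adjusted p = 0.00473).

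The list of axon guidance, neural adhesion and neuronal cytoskeleton genes had 50 members tested, of which 6 rose and 9 fell, and 5 of the rises and 8 of the falls were called under every alternative. Its median was 0.05. Mapt, the microtubule protein tau, had 10.9, 8.73 and 9.73 CPM in the proline libraries and 56.9, 50.9 and 58.6 CPM in the control libraries. The highest proline library lay far below the lowest control library, at a log2 change of −2.49 ± 0.24 (SE, adjusted p = 3.41e-07). The ephrin receptor Epha4 had 50.4, 47.2 and 57.5 CPM with proline, against 157, 141 and 167 CPM in control, at −1.58 ± 0.14 (adjusted p = 5.42e-08). The adhesion molecule Ncam1 had 20.2, 13.5 and 23.8 CPM with proline, against 74.9, 58.2 and 55.4 CPM in control, at −1.71 ± 0.21 (adjusted p = 5.94e-06). Tubb3, the neuronal beta-tubulin, fell as well, at −0.92 ± 0.19 (adjusted p = 0.00285), although the neural progenitor list otherwise held no call among 10 tested genes. Receptor genes were among the rises beside Sema6a and Pcdh1. Unc5b, a netrin receptor, had 61.2, 50.03 and 59.2 CPM with proline, against 20.6, 25.4 and 27.3 CPM in control, at 1.22 ± 0.22 (adjusted p = 9.88e-04). Prtg, the receptor protogenin of the early epiblast and neural tube, had 39.9, 54.03 and 56.5 CPM with proline, against 14.6, 14.8 and 18.8 CPM in control, at 1.64 ± 0.40 (adjusted p = 0.0103).

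Chromatin genes changed in both directions. Of 39 Polycomb and remodelling genes, 4 rose (2 without proline 3) and 5 fell (3 without control 2). Chd7, a remodelling ATPase, had 186, 221 and 201 CPM with proline, against 81.00, 81.3 and 85.9 CPM in control, at 1.29 ± 0.18 (adjusted p = 5.30e-05). Accessory subunits of Polycomb repressive complex 2 fell, with Mtf2 at 206, 209 and 245 CPM with proline, against 357, 368 and 309.8 CPM in control, and Epop at 274, 280.5 and 218 CPM with proline, against 436, 406 and 501 CPM in control. Their log2 changes were −0.65 ± 0.11 (adjusted p = 5.94e-04) and −0.80 ± 0.14 (adjusted p = 4.36e-04). The core subunit Eed changed by −0.61 ± 0.14 (adjusted p = 0.00501), a call that ended without control 2 (0.0546), and Suz12 by −0.51 ± 0.15 (adjusted p = 0.0425), a call that ended with transcript length and GC offsets (0.378), without control 1 (0.219), without control 2 (0.0798), without proline 1 (0.0954), without proline 2 (0.171) and without proline 3 (0.0692). Mga and Pcgf6, partners in a complex that represses germline genes, went apart, Mga at −0.67 ± 0.13 (adjusted p = 0.00135) and Pcgf6 at 0.80 ± 0.18 (adjusted p = 0.00546). Of 18 germline genes, however, 1 fell, the naive marker Zfp42, and none rose.

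Among 19 DNA methylation genes, 2 rose and 2 fell. The methyltransferase genes Dnmt3a and Dnmt3b, both formative markers, rose by 1.43 ± 0.13 and 1.66 ± 0.11, and the demethylating dioxygenases Tet1 and Tet2 fell. Tet1 had 256, 256 and 299 CPM with proline, against 575, 559.5 and 482 CPM in control, at −0.996 ± 0.11 (adjusted p = 2.21e-06), and the naive marker Tet2 changed by −1.70 ± 0.20 (adjusted p = 4.66e-06). The wider list of oxoglutarate-dependent dioxygenases, enzymes that share the cofactor of the Tet proteins, had 44 tested members, of which 1 rose (0 without control 1, control 2, proline 1 or proline 3) and 4 fell. The Tet genes and the histone demethylase genes Kdm5b (−0.40 ± 0.11) and Jmjd1c (−0.78 ± 0.15) were the falls. The Kdm5b call ended with transcript length and GC offsets (0.0508), without control 3 (0.081), without proline 2 (0.0639) and without proline 3 (0.0852).

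Of 39 clustered and linker histone genes none rose and 6 fell (3 without proline 3). Besides H2bc4, the linker histones H1f2 and H1f0 changed by −1.50 ± 0.25 (adjusted p = 3.01e-04) and −0.97 ± 0.22 (adjusted p = 0.00648). H3c15 had 2 counts in the proline libraries and 102 in the control libraries, a ratio of 84.2, control over proline (95% counting interval 22.7 to 704.8), at an adjusted p of 0.0495. That call ended with DESeq2 (0.0795), with scaling by library totals (0.0512), with libraries thinned to the smallest (0.0516), without control 1 (0.103), without control 2 (0.162), without control 3 (0.0651), without proline 1 (0.171), without proline 2 (0.139) and without proline 3 (0.0542). The kit reads polyadenylated RNA, and most transcripts of replication-type histone genes are known to lack a poly(A) tail, so the values of such genes cover only the tailed part. Of 45 cell cycle genes 4 rose (2 without control 2 or proline 3) and 2 fell (0 without control 1, control 2, control 3, proline 1, proline 2 or proline 3). Cyclin E1 (Ccne1) had 440.4, 409 and 418 CPM with proline, against 269, 260.2 and 269 CPM in control, at 0.67 ± 0.11 (adjusted p = 2.64e-04), and Mycn above stood in the same list. The calls of both falls, Mki67 and E2f2, ended when any 1 of the 6 libraries was left out. Both also ended with libraries thinned to the smallest and with length and GC offsets (0.0818 and 0.0512). The E2f2 call ended as well with either other scaling, without the low-count filter, in a fit of the 6 libraries alone and without mitochondrial genes and Rn18s. Of 26 genes of p53 and its targets, 1 rose (0 without control 1, control 2, proline 1, proline 2 or proline 3) and 3 fell. Trp53inp1 changed by −0.83 ± 0.14 (adjusted p = 3.82e-04) and Ccng1 by −0.69 ± 0.11 (adjusted p = 2.07e-04), and the Ccng1 call ended with length and GC offsets (0.132), where 1 member of the list fell.

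Of 38 imprinted genes, 5 rose (2 without control 1 or proline 1, 1 without control 2 or proline 3) and 4 fell. Kcnq1ot1, the long noncoding RNA of its imprinted cluster, had 30.9, 38.8 and 26.5 CPM with proline, against 109, 90.97 and 104 CPM in control, at −1.66 ± 0.16 (adjusted p = 2.53e-07). In the Prader-Willi and Angelman region, Snrpn and Ube3a went opposite ways. Snrpn had 299, 316 and 286 CPM with proline, against 153, 129 and 166 CPM in control, at 1.01 ± 0.13 (adjusted p = 9.88e-06). Ube3a had 192, 187 and 234 CPM with proline, against 317, 299.9 and 323 CPM in control, at −0.62 ± 0.11 (adjusted p = 0.00108). Meg3, the noncoding RNA of the Dlk1 cluster, changed by 0.47 ± 0.12 (adjusted p = 0.0175), a call that ended without control 1 (0.105), without control 2 (0.0567), without proline 1 (0.0937) and without proline 3 (0.0857).

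In the Lin28, Igf2bp and let-7 list, 17 genes tested, 1 rose (3 without control 3) and 2 fell (0 without control 2, control 3, proline 2 or proline 3). Lin28a, which blocks maturation of let-7 microRNAs, had 448, 382 and 408 CPM with proline, against 242, 261 and 271 CPM in control, at 0.68 ± 0.12 (adjusted p = 8.23e-04). Of 38 lysosome and autophagy genes, 1 rose (0 without control 1, control 2, control 3, proline 1, proline 2 or proline 3) and 6 fell. Mitf, a transcription factor of melanocytes that also acts on lysosome genes, had 7.65, 4.29 and 7.503 CPM with proline, against 33.5, 31.2 and 39.5 CPM in control. Its proline libraries lay far under all controls, at a log2 change of −2.40 ± 0.25 (SE, adjusted p = 6.35e-07). The protease cathepsin D (Ctsd) had 166, 179 and 202 CPM with proline, against 244, 252 and 347 CPM in control, at −0.63 ± 0.13 (adjusted p = 0.00332). Scarb2, a lysosomal membrane protein, and Gabarapl2, of the autophagosome, changed by −0.91 ± 0.19 (adjusted p = 0.00244) and −0.96 ± 0.19 (adjusted p = 0.00197). Among 33 metallothionein, haem and antioxidant genes, 2 rose (1 without proline 1, 0 without proline 3) and 4 fell (2 without control 3 or proline 3). Sod2, the mitochondrial superoxide dismutase, had 174, 156 and 141 CPM with proline, against 250.4, 235 and 241 CPM in control, at −0.62 ± 0.12 (adjusted p = 0.00142). Nqo1, a quinone reductase and target of the factor Nrf2, changed by −1.09 ± 0.24 (adjusted p = 0.00577).

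Markers of pluripotency and of other cell types were used to check the label of the cells. Of 14 general pluripotency genes, 1 rose and 3 fell (1 without control 2 or proline 2). Their summed level ran from 6101 to 6195 CPM in proline libraries and from 6507 to 6813 CPM in control libraries. Pou5f1, which has pseudogenes that make its counts uncertain, had 27.4, 27.4 and 35.99 CPM with proline, against 33.2, 29.3 and 26.99 CPM in control (log2 0.02 ± 0.25), and Sox2 had 437, 478 and 458 CPM with proline, against 572, 527 and 479 CPM in control (log2 −0.20 ± 0.11). Neither was called. Of 22 naive genes 15 fell and none rose, and of 23 formative genes 12 rose and none fell. Markers of other cell types gave few calls, but many had low levels, where few genes of any kind were called. Of all 4241 tested genes under 5 CPM, 13 rose (0.307%) and 42 fell (0.990%). The lack of a call in such markers therefore cannot show that a cell type was absent. Primitive streak and mesoderm genes had none among 10 tested, with summed levels of 14.8 to 27.1 CPM in proline and 24.3 to 27.3 CPM in control libraries, and Foxf1 and Msgn1 at 0. Feeder fibroblast genes had none among 8 (31.0 to 36.4 CPM in proline and 18.7 to 33.8 CPM in control libraries, with Lum, Postn and Twist2 at 0), and the 2-cell-like list none among 6 (10.7 to 12.8 CPM in proline and 15.85 to 20.1 CPM in control libraries, with Tdpoz1, Tdpoz3, Tdpoz4 and Zscan4b at 0, and a median log2 change of −0.91). The neural list summed to 96.3 to 124 CPM in proline and 114 to 129.6 CPM in control libraries, with Olig2 at 0. Gbx2 and Tubb3 made up most of that sum, and the median log2 change of its 10 tested members was 0.49, 5 of them positive and 5 negative. Pax6, a transcription factor of neural progenitors, had 12.3, 7.99 and 9.17 CPM with proline, against 3.44, 3.66 and 5.86 CPM in control (log2 1.18 ± 0.41, adjusted p = 0.0805), and the filament gene Nes had 7.59, 11.99 and 8.75 CPM with proline, against 1.47, 5.01 and 4.16 CPM in control (log2 1.41 ± 0.63, adjusted p = 0.206). The libraries of these 2 genes did not overlap between the groups, and neither was called. Beside Tubb3, mean levels were lower with proline in Gbx2 (41.0 against 49.8 CPM in control) and Sox21 (4.36 against 7.24 CPM). They were also lower in Sox1 (2.08 against 3.04 CPM) and Six3 (1.77 against 2.02 CPM), and none of these was called. In the endoderm list of 12 genes, 1 rose (0 without control 1, control 2, control 3, proline 1, proline 2 or proline 3), Sox17, with 65 counts in proline and 1 in control libraries (ratio 39.4, 95% counting interval 6.82 to 1578). The Sox17 call ended with limma-voom (0.112), without the low-count filter (0.0633), without control 1 (0.153), without control 2 (0.149), without control 3 (0.0502), without proline 1 (0.0783), without proline 2 (0.0826) and without proline 3 (0.0895). The summed levels of the list, mostly Sparc and Lamb1, overlapped at 605 to 634 CPM in proline and 628 to 733 CPM in control libraries, with Cer1 and Ttr at 0. The median log2 change of its tested members was 1.08, with 9 positive and 3 negative. Dab2, an adaptor protein of primitive endoderm, had 12.95, 14.1 and 12.1 CPM with proline, against 4.42, 6.36 and 0 CPM in control (log2 1.87 ± 0.74, adjusted p = 0.145). Gata4, a transcription factor of that lineage, had 1.96, 5.62 and 1.53 CPM with proline, against 1.800, 0 and 0 CPM in control (log2 2.29 ± 1.61, adjusted p = 0.493). Neither was called, and the groups overlapped for Gata4 but not for Dab2. The negative members, also not called, were Sparc, Foxa2 (mean 0.81 CPM with proline against 1.67 CPM in control) and Sox7 (0.48 against 1.43 CPM). In the trophoblast and keratin list of 17 genes, 1 rose, Peg10, and 1 fell, Krt8. The Peg10 call ended without control 1 (0.119), without control 2 (0.0653) and without proline 3 (0.114), and the Krt8 call ended with limma-voom (0.155), in a fit of the 6 libraries alone (0.107), without control 2 (0.0528) and without proline 1 (0.0682). Its summed levels were 333 to 395 CPM in proline and 290.4 to 346 CPM in control libraries. The part of other cell types in the results was not tested.

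The same treatment was also given beside budesonide, and those 6 libraries, proline with budesonide against budesonide alone, are shared with none of the 6 above. There 203 genes were called (1.47%), 121 higher (0.874%) and 82 lower (0.592%). Of the 439 genes that rose without budesonide 90.4% had the same sign with it, and of the 652 that fell 87.7%, beside 62.0% of all genes. Genes called both times numbered 125, which is 11.5% of the calls without budesonide and 61.6% of those with it, and all 125 had the same sign, 66 higher and 59 lower. Across the 1091 genes, which are not independent replicates, the log2 effects correlated with r = 0.690, and the median ratio of the effect with budesonide to that without was 0.385. The 1091 genes were selected by their effect without budesonide, a selection that by itself lowers this ratio. Among genes beyond the marker lists, Enpp2 stood at 2.79 ± 0.33 with budesonide and 3.22 ± 0.31 without (log2 change ± SE). Lefty2 stood at 0.55 ± 0.17 with budesonide and 1.48 ± 0.17 without, and Mycn stood at 0.46 ± 0.12 with budesonide and 0.95 ± 0.12 without. Asns stood at −0.82 ± 0.12 with budesonide and −1.17 ± 0.13 without. H2bc4 stood at −1.48 ± 0.17 with budesonide and −2.36 ± 0.17 without, and Mapt stood at −1.47 ± 0.23 with budesonide and −2.49 ± 0.24 without. Lgals3 stood at −0.48 ± 0.13 with budesonide and −1.85 ± 0.14 without. The test of the difference between the effects, with budesonide minus without, called 65 genes (0.469%). The difference was above 0 in 57 (0.411%), all of them genes that fell without budesonide. It was below 0 in 8 (0.0578%), all of them genes that rose. In all 65 the effect was smaller in size with budesonide, and in 18 it had the opposite sign.

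**Figure D5:**
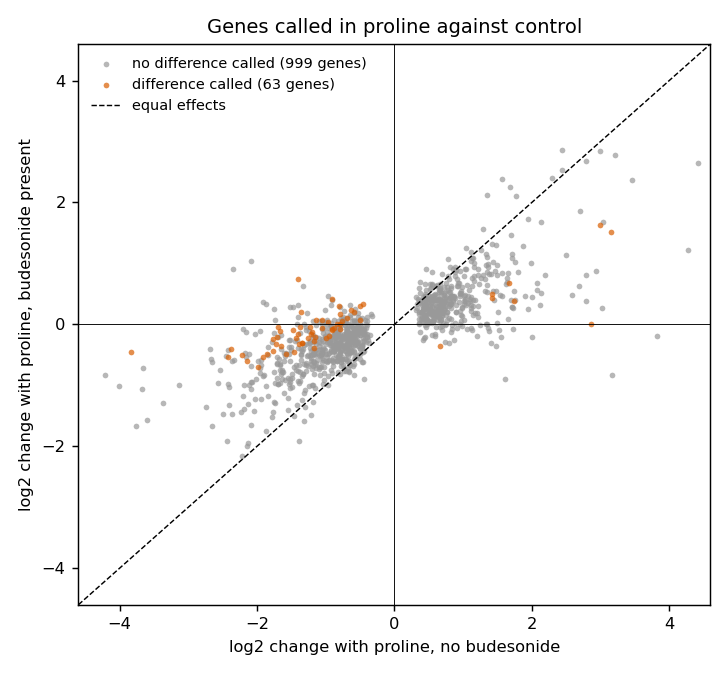
Log2 change with proline in budesonide-treated cells (vertical axis) against that without budesonide (horizontal axis) for 1062 of the 1091 genes called without budesonide, with 29 outside the axes. Most points share the sign on both axes and lie nearer to 0 than the dashed line of equal effects, and orange points are genes whose difference between the effects was called, in a test that uses the libraries of both axes.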

How the data were processed

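Tools listed without role or order, per the submitters' processing notes, are STAR 2.7.5c, featureCounts 2.0, cutadapt 2.5, bcl2fastq and DESeq2, with GRCm39 as the build. Libraries were made, per the labels' protocols, with a kit that reads the 3′ ends of polyadenylated RNA. The deposited values are whole-number counts per gene symbol, 1 column per library, with no pooling. Annotation, strand setting and the treatment of multi-mapping reads were not given in the sources used here, so genes with near-identical copies or antisense partners are uncertain. Because no molecular identifiers are named, counting intervals cover counting error only.

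Counts of all 12 libraries were fitted with edgeR 4.0.16 in R 4.3.3. Genes were kept by filterByExpr (minimum count 10, minimum total 15), scaled by TMM, and tested with glmQLFit and glmQLFTest with 1 coefficient per group, with 8 residual degrees of freedom. Benjamini-Hochberg adjustment covered 13852 genes. The standard error (SE) was computed as the size of the log2 change divided by the root of F. The median biological coefficient of variation was 0.293. The fit was checked on simulated counts with 200 changed genes. DESeq2 1.42.0, limma-voom 3.58.1, other scalings and filters, a fit of the 6 libraries alone, a replicate block, thinning to 5299432 counts and leaving out each library were alternatives. An offset for transcript length and GC content (GENCODE M21, 99.1% of genes) and a test against a 1.5-fold change were added after the data were seen. No library repeated another.

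The genes and the 49 lists were chosen with earlier results of these data known. Named genes were the 12 largest rises and falls and the 10 of each with the smallest p, among called genes with groups that did not overlap and at least 10 CPM in the higher group, outside the naive and formative lists, and up to 5 called members per list and direction. Of these, mainly those called under every alternative are given with values, and a few genes that the rule names are not reported here. The second deposited table, the same counts over size factors, was not used.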

Additional observations from a re-analysis of the deposited data

Results flagged for a closer look

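A difference between the proline effect in budesonide-treated cells and that without budesonide was called for the genes listed here (edgeR's quasi-likelihood test of the interaction, adjusted p from 3.82e-06 to 0.0491). The values are log2 effects with budesonide minus those without, and they share libraries with the effects reported above. Naive markers gave Tbx3 1.97, Tfcp2l1 1.71, Zfp42 1.56, Esrrb 1.55, Jam2 1.41 and Klf4 1.39. Tbx3, for one, stood at −0.41 ± 0.13 with budesonide and −2.38 ± 0.14 without (log2 change ± SE). Formative markers gave Pou3f1 −1.63, Pim2 −1.37, Dnmt3a −0.996 and Dnmt3b −0.99. Further lower values were Cnksr3 −2.86, Irf1 −1.36 and Slc16a3 −0.92. Irf1 stood at 0.38 ± 0.18 with budesonide and 1.74 ± 0.18 without. Genes of matrix, cell contact and membrane gave Nid1 1.66, Ncam1 1.51, Ahnak 1.38, Scarb2 1.33, Lama1 1.30 and Epha4 1.09. The ligand and galectin genes gave Lgals3 1.37, Bmp4 1.25 and Pdgfa 1.06, and genes of actin, myosin and small GTPases Mras 1.30, Rock1 1.12, Mylpf 1.34 and S100a6 0.99. Mitotic and kinesin genes gave Kif20b 1.03, Cenpe 0.96, Cenpf 0.91 and Kif5b 0.84. Mitochondrially encoded genes gave mt-Nd2 0.81, mt-Nd4 0.79 and mt-Cytb 0.56, in genes whose proline calls ended with transcript length and GC offsets. The other values were Ahnak2 1.89, Eif2s2 0.77, Epop 0.97, Hspb1 0.72, Rif1 0.78, Slc2a3 0.80 and Zfp936 1.32. The causes of these differences were not tested.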

How the results depend on the processing

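For proline against control the count of 1091 calls ranged from 674 to 887 when 1 library was left out, with 223 to 334 higher and 451 to 553 lower. The same count was 994 with length and GC offsets and between 1049 and 1141 under the other scalings, filters and thinning, 1115 with limma-voom and 1413 with DESeq2. A test against a 1.5-fold change called 192. For the proline effect in budesonide-treated cells, 203 calls became 435 with DESeq2 and 354 with no low-count filter, and 80 to 171 with 1 library left out. The test of the difference between the effects gave 65 calls, 162 with DESeq2 and 134 with no low-count filter, and 44 to 89 with 1 library left out. With a replicate block the 3 counts were 927, 128 and 46, and among the genes whose lost calls are given in the report, Glud1 (adjusted p = 0.0724), Trib3 (0.0654), Tdh (0.0573), Suz12 (0.0652), Sox17 (0.0727) and Lpar1 (0.0679) were also not called by edgeR. The same held for Mki67 (0.0682), E2f2 (0.0716), Sars (0.0543) and Nars (0.0783). Same-numbered proline and control libraries did not deviate together (r across genes of −0.052, −0.0009 and 0.039), so the numbers share only a number. Of 4515 values of 266 genes named, 3990 stayed on the same side of the threshold, 519 lost their call, 6 gained one and none changed direction, and 146 genes were called under every alternative. Of the counts of list members 254 moved and 1412 did not. No scaling moved the median of all genes by more than 0.02 on the log2 scale. Depth limits low genes: of 4241 genes under 5 CPM, 13 rose and 42 fell. The doses, the medium, the culture time of the untreated cells and the origin of the replicates are not given in the labels.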

Other observations

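The gene groups given here were chosen after their values were seen, so their counts describe and test nothing. They stand beside 3.17% of all genes tested that rose and 4.71% that fell. Of 320 tested genes with Zfp symbols, most of them DNA-binding zinc finger proteins, 3 rose and 27 fell with proline, with a median log2 change of −0.16 beside −0.01 over all genes, and 1 of the rises and 11 of the falls were called under every alternative. Zfp936 had 36.04, 29.6 and 40.4 CPM with proline, against 99.98, 104 and 155 CPM in control, a log2 change of −1.76 ± 0.18 (SE, adjusted p = 4.60e-07). Zfp704 had 22.8, 25.01 and 23.6 CPM with proline, against 68.4, 51.1 and 72.2 CPM in control, at −1.43 ± 0.19 (adjusted p = 2.67e-05). Zfp292 had 86.7, 80.1 and 88.4 CPM with proline, against 179.5, 166 and 170.3 CPM in control, at −1.02 ± 0.14 (adjusted p = 2.54e-05). In each of these genes all proline libraries lay below all control libraries.

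Of 48 kinesin and centromere protein genes 2 rose, Kif1a and Kif21a, and 4 fell, and neither rise was called without control 1, proline 1 or proline 3. Beside them, 3.17% of all genes tested rose and 4.71% fell. The list as a whole did not shift, with a median log2 change of −0.0006, 24 members positive and 24 negative. The Kif21a call ended without control 1 (0.0691), without control 3 (0.0519), without proline 1 (0.0563) and without proline 3 (0.0574). Cenpf, a large kinetochore protein of mitosis, had 149, 133 and 146 CPM with proline, against 341, 291 and 333 CPM in control, at −1.17 ± 0.12 (adjusted p = 4.68e-07). The mitotic kinesin-like motor Cenpe had 81.1, 79.3 and 96.7 CPM with proline, against 182, 192 and 199.6 CPM in control, at −1.16 ± 0.13 (adjusted p = 1.76e-06). Kif20b and Kif5b changed by −1.35 ± 0.15 (adjusted p = 2.98e-06) and −0.83 ± 0.12 (adjusted p = 5.52e-05). Of 11 nuclear long noncoding RNAs 2 rose, Meg3 and Mirg, and 4 fell. The Meg3 call ended without control 1 (0.105), control 2 (0.0567), proline 1 (0.0937) or proline 3 (0.0857), and the Mirg call ended with transcript length and GC offsets (0.0619), without control 1 (0.0967), without control 2 (0.0528), without proline 1 (0.0636) and without proline 3 (0.0883). Neat1, the scaffold of paraspeckles, had 31.7, 40.9 and 28.1 CPM with proline, against 79.5, 96.4 and 136 CPM in control, at −1.64 ± 0.18 (adjusted p = 2.36e-06). Xist and its antisense partner Tsix, which overlap and cannot be told apart without strand, changed by −1.71 ± 0.29 (adjusted p = 4.21e-04) and −1.70 ± 0.39 (adjusted p = 0.00647), beside Kcnq1ot1 in the report.

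Of 66 genes with a median annotated transcript of 8000 bases or more, 1 rose (1.52%) and 12 fell (18.2%). Of 5239 under 1000 bases, 194 rose (3.70%) and 216 fell (4.12%), beside 3.17% and 4.71% of all genes tested. The median log2 changes of these classes were −0.08 and 0.02, and 0.10 and −0.01 with length and GC offsets.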
